A study of Mus musculus with 19 samples.

Results

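Layer 6 and the subplate are the deepest neuronal layers of the cerebral cortex, and 9 genes widely used to mark them were followed here through 3 types of cortical projection neurons: Tbr1, Foxp2, Tle4, Zfpm2, Nr4a2, Ccn2, Nxph4, Cplx3 and Moxd1. All 9 were on the array, and each was read from its brightest probe set, the one with the highest mean over all 19 arrays, among 18193 genes represented in the same way. The RNA came from mouse neurons of the C57BL/6 strain that had taken up green fluorescent microspheres through their axons and were then isolated by fluorescence-activated cell sorting into RNAlater. Callosal projection neurons (CPN), which connect the hemispheres, and corticospinal motor neurons (CSMN), which reach the spinal cord, were each taken at 4 stages, embryonic day 18 (E18), then postnatal day 3 (P3), day 6 (P6) and day 14 (P14). Corticotectal projection neurons (CTPN), which reach the midbrain tectum, were taken at P14 alone. Every group had 2 arrays except CSMN at P3, which had 3, so that there were 8 CPN, 9 CSMN and 2 CTPN arrays. No group carried a mutation, transgene or drug. The labels tie CSMN and CPN to sensorimotor and CTPN to visual cortex, so type and area cannot be told apart in any comparison with CTPN. Each collection was independent per the labels, and whether animals were pooled for 1 collection is not given in the sources used here.

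Neurons of layer 6 are born before those of the upper layers, and many of them send axons to the thalamus. Subplate neurons are older still; they lie beneath layer 6, are needed while thalamic axons enter the cortex, and survive in part as layer 6b. Tbr1 is a T-box transcription factor that specifies layer 6 corticothalamic neurons and holds back the subcerebral regulators Fezf2 and Bcl11b. Foxp2 is a forkhead transcription factor of layer 6 and some layer 5 neurons, Tle4 a Groucho-family corepressor of corticothalamic neurons and Zfpm2 a multi-zinc-finger cofactor of GATA factors. Nr4a2 is an orphan nuclear receptor of the subplate and claustrum, and it also belongs to the genes that neurons induce rapidly on activity. Ccn2 is a secreted matricellular protein, Nxph4 a secreted ligand of neurexins, Cplx3 a complexin that regulates vesicle fusion and Moxd1 a monooxygenase-like protein of the secretory pathway. These last 4 mark subplate or layer 6b neurons, and Ccn2 is also made by fibroblasts and vessel cells.

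RefSeq promoters, on the mouse build GRCm38.p6 and reaching from 250 bases before to 50 bases after the start, were found for 5 of the 9 genes, in 6 entries. They are shown for the 3 genes with lower values in CSMN, Tbr1 at chr2:61804203-61804502 on the plus strand, Nr4a2 at chr2:57123954-57124253 on the minus strand and Moxd1 at chr10:24223267-24223566 on the plus strand, each written 5′ to 3′ along the gene. Capitals mark TGACG, the half-site of the cyclic AMP response element, or CGTCA where it lies on the opposite strand.
Tbr1: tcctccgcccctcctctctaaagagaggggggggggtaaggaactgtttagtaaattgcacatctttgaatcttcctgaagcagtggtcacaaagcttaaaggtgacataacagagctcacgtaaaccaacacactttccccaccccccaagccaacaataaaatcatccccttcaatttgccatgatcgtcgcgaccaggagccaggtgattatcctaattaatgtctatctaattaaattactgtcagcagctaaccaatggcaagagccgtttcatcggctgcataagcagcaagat
Nr4a2: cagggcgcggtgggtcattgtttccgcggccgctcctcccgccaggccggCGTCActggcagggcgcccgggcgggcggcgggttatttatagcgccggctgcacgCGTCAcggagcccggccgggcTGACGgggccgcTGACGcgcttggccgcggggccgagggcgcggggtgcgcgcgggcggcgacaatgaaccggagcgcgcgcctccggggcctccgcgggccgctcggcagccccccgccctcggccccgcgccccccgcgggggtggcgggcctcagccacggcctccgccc
Moxd1: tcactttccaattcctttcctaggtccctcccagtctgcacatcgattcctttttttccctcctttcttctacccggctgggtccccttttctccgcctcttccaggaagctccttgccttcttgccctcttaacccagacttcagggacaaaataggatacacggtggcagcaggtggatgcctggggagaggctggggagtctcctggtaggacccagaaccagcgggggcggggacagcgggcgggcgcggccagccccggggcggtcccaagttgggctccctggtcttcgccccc
The Nr4a2 promoter held TGACG 4 times, with first bases at -200 and -144 on the opposite strand and at -123 and -111 on the gene's own strand, counted from the start. On either strand 20.8% of all 32851 promoters in the table hold at least 1 such match. The letters GGTGTGA, the core of a T-box site, were in none of the 6 entries and in 3.98% of all promoters. Neither TGTTTAC, a forkhead core (3.65% of promoters), nor AAGGTCA, the half-site that NR4A receptors bind (4.72%), was in any of the 6 entries. The 3 promoters differed in base composition: guanine and cytosine made up 46% of the Tbr1 sequence with 7 CpG pairs, 81.7% of the Nr4a2 sequence with 52 and 61.7% of the Moxd1 sequence with 13, against a median of 52.7% over the table.

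Values are log2 expression, so that a difference of 1 is a doubling, and array medians lay between 6.42 and 6.62. Differences are given ± the standard error (SE) of a single limma model of the 9 group means, a difference was called where its p, adjusted by the Benjamini-Hochberg method for the 18193 genes, was under 0.05, and folds are printed where every array compared lay above 6.62. The type labels could be checked on Bcl11b, the regulator of subcerebral neurons, which was 2.95 ± 0.20 higher in CSMN than in CPN as the mean of 4 stages, on Fezf2 (1.92 ± 0.14) and on the upper-layer gene Cux2 (-3.22 ± 0.34). Replicate arrays correlated across genes at 0.949 or more except CSMN at P14, where the correlation was 0.904. Some results that rest on that pair are also given with 1 of its arrays left out. CSMN at P14 is then 1 array with no spread of its own. Others, among them the values of single listed genes outside the 9, are given with both arrays only. CPN at E18 stood apart from CSMN at E18 in markers of dividing cells and progenitors, whose 6 genes averaged 10.9 on both CPN arrays and 5.68 and 5.83 on the CSMN arrays. Because the samples are bulk RNA, fewer cells of a type and less RNA per cell cannot be told apart in any value below.

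**Figure D1:**
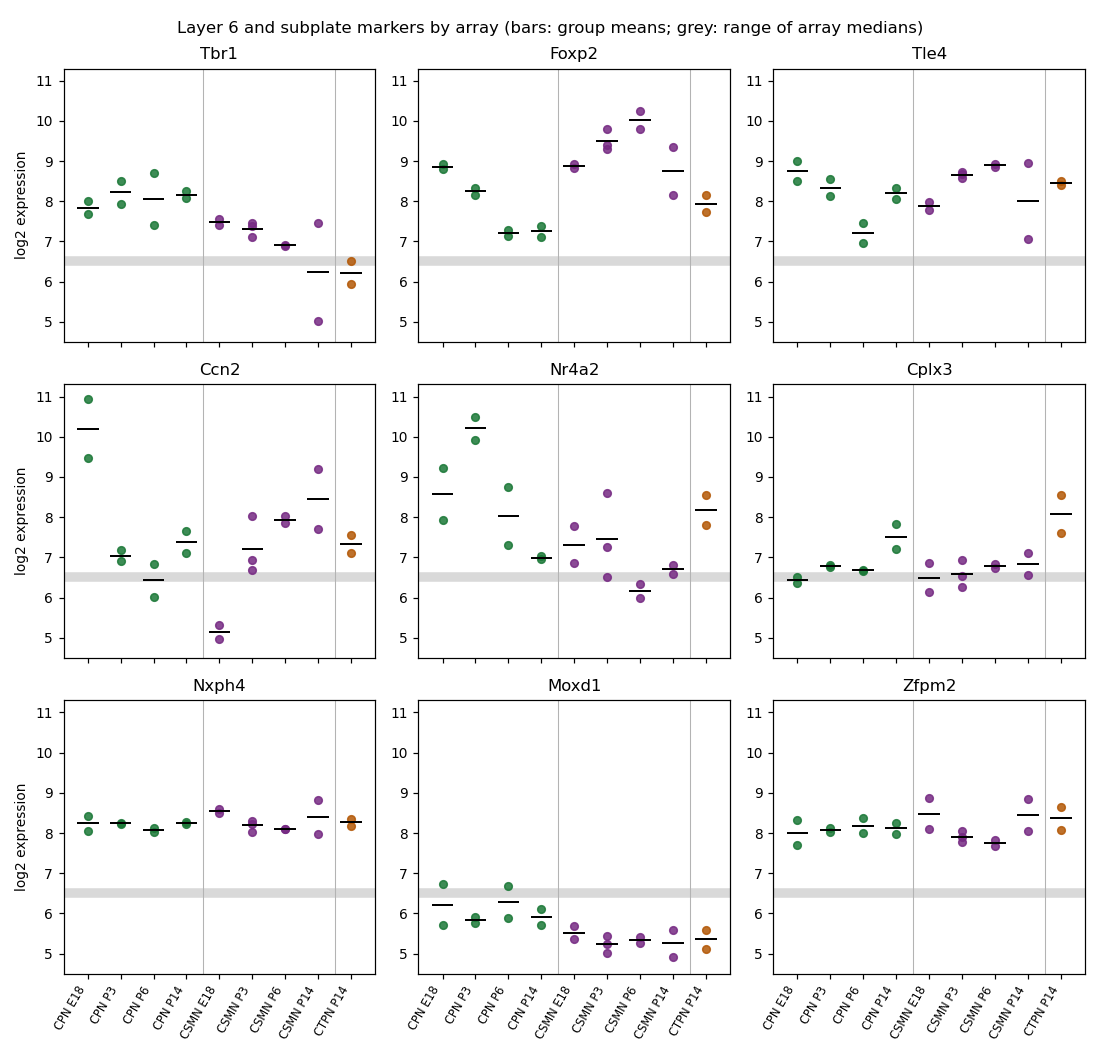
Log2 expression of each of the 9 genes (vertical axis) in every array, grouped by neuron type and stage (horizontal axis); points are arrays, bars group means and the grey band the range of array medians, 6.42 to 6.62. Foxp2 runs apart between CPN and CSMN after E18, Ccn2 and Nr4a2 are highest in young CPN, Nxph4 and Zfpm2 stay within narrow bands and Moxd1 lies mostly under the grey band.

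Across the 4 stages, 4 of the 9 genes differed between CSMN and CPN, 1 higher and 3 lower in CSMN, where 8.29% of all genes were called (2.96% higher and 5.34% lower). Foxp2 was 2.62-fold higher in CSMN, while Tbr1, Nr4a2 and Moxd1 were lower. The median difference of the 9 was -0.18, beside 0.06 over all genes. With the E18 arrays left out, the same 4 genes were called in the same directions, where 4.11% of all genes were called: Foxp2 was then 3.60-fold higher (1.85 ± 0.18, adjusted p = 1.75e-05). Single stages called 1 gene each. The arrays of the types did not overlap for 6 of the 9 genes at E18, 5 at P3, 8 at P6 and 6 at P14, as was the case for 52.4%, 34.2%, 44.4% and 32.4% of all genes. An F test over all 9 groups called 5 of the 9, Foxp2, Ccn2, Nr4a2, Cplx3 and Tbr1, beside 27.6% of all genes.

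Foxp2 separated the types after E18. The CPN arrays stood at 8.92 and 8.79 for E18, 8.34 and 8.15 for P3, 7.29 and 7.15 for P6, then 7.38 and 7.11 for P14. The CSMN arrays stood at 8.92 and 8.82 for E18, 9.29, 9.79 and 9.39 for P3, 10.23 and 9.79 for P6, then 9.35 and 8.15 for P14. The types therefore overlapped at E18, and at P3, P6 and P14 every CSMN array lay above every CPN array of its stage. The mean difference over 4 stages was 1.39 ± 0.15 (adjusted p = 4.46e-05), and at E18 alone it was 0.01 ± 0.31, with a 95% interval from -0.66 to 0.68. It was 1.24 ± 0.29 at P3, which did not pass (adjusted p = 0.0627) but did without either CSMN P14 array (adjusted p = 0.00378, 1.87% of all genes called). It was 6.94-fold at P6 (2.79 ± 0.31, adjusted p = 0.000329), the stage at which it was the 1 gene of the 9 called, where 1.07% of all genes were. At P14 it was 2.83-fold (SE 0.31 on the log2 scale, adjusted p = 0.028), again alone of the 9, where 1.39% of all genes were called. Without CSMN P14 replicate 1 that difference was 0.90 and without replicate 2 it was 2.10, each resting on 1 CSMN array. Without either CPN P14 array it was no longer called. At P6 the mean of 4 astrocyte genes lay between 8.14 and 8.21 on the CSMN arrays and between 6.94 and 7.75 on the CPN arrays. None of the 4 was called there, and their part in the Foxp2 difference was not tested. The difference between the types varied with stage by an F test (adjusted p = 0.00953), which 4.24% of all genes passed.

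Within CPN, Foxp2 fell 3.05-fold from E18 to P14 (-1.61 ± 0.31, adjusted p = 0.00182). Of the steps between successive stages, the fall of 1.26 ± 0.31 from P6 to P14 in CSMN passed (adjusted p = 0.0309), where 6.03% of all genes were called. It was -1.87 without CSMN P14 replicate 1 and -0.66 without replicate 2, where it did not pass. Ordered by group mean, Foxp2 ran from CSMN at P6 (10.01) to CPN at P6 (7.22). Of the 8 pairs of neighbours in that order, the model's unadjusted 95% interval excluded 0 for CSMN at P3 over CSMN at E18 (0.62, from 0.0051 to 1.23, adjusted p = 0.159 over all genes) and for CTPN over CPN at P14 (0.68, from 0.012 to 1.36, adjusted p = 0.707). The genes whose 9 group means were most like those of Foxp2 were Arhgap12 (Pearson r = 0.91) and Egln3 (0.89), an oxygen-sensing prolyl hydroxylase, among 2797 candidates.

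Tbr1, in contrast to Foxp2, was lower in CSMN. CPN gave 8.01 and 7.67 (E18), 7.92 and 8.51 (P3), 8.71 and 7.41 (P6) and 8.07 and 8.25 (P14). CSMN gave 7.55 and 7.41 (E18), 7.45, 7.39 and 7.10 (P3), 6.92 and 6.88 (P6) and 7.46 and 5.01 (P14). At every stage all CPN arrays lay above all CSMN arrays, while over the stages together the types overlapped between 7.41 and 7.55. The difference over 4 stages was -1.09 ± 0.28 (adjusted p = 0.0246), but no single stage passed, with values from -0.36 ± 0.57 at E18 to -1.93 ± 0.57 at P14 (adjusted p = 0.148). The call over 4 stages was lost when any of 8 single arrays was left out: CPN E18 replicate 1, CPN P3 replicate 2, CPN P6 replicate 1, either CPN P14 array, CSMN E18 replicate 2 or either CSMN P6 array. Over all 19 fits that left out 1 array, these 8 and the others, the difference lay between -1.39 and -0.78, with adjusted p up to 0.0703.

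The P14 value of Tbr1 in CSMN turned on the pair of arrays that correlated least. Without CSMN P14 replicate 2, the array at 5.01, the P14 difference was -0.70, and without replicate 1, the array at 7.46, it was -3.15. Each of these values rests on 1 CSMN array. None of the 8 neighbouring pairs of groups differed beyond its 95% interval in Tbr1, from CPN at P3 (8.22) down to CTPN at P14 (6.22). Kitl, the ligand of the receptor Kit, had the most similar course (r = 0.97), followed by Ptprk, a receptor tyrosine phosphatase (0.93).

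Tle4, the corepressor, did not pass between the types with all arrays in the fit. Its CPN values were 8.51 and 9.01 (E18), 8.55 and 8.12 (P3), 6.97 and 7.46 (P6) and 8.34 and 8.05 (P14), so that P6 was the low point. Its CSMN values were 7.78 and 7.99 (E18), 8.69, 8.57 and 8.73 (P3), 8.92 and 8.86 (P6) and 8.95 and 7.07 (P14). At P6 both CSMN arrays lay above both CPN arrays, by 3.20-fold (1.68 ± 0.41, adjusted p = 0.0785), and at E18 both lay below them (-0.88 ± 0.41, adjusted p = 0.173). Without either CSMN P14 array, which lowers the spread estimated for all groups, the same differences were called at P6 (adjusted p = 0.000714, 2.11% of all genes called) and at E18 (adjusted p = 0.0105, 23.4% called). At P14 the CSMN arrays lay on either side of the CPN arrays. The difference was -1.13 without CSMN P14 replicate 1 and 0.75 without replicate 2. Over 4 stages it was 0.23 ± 0.20 (adjusted p = 0.512), or -0.0004 without replicate 1 and 0.47 without replicate 2. The variation of the type difference with stage did not pass (F test, adjusted p = 0.0785). Tle4 was most like Grik3, a kainate receptor subunit (r = 0.84), and Egln3 (0.79), and its group means correlated with those of Foxp2 at 0.67 over the 9 groups.

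Zfpm2, the GATA cofactor, gave different pictures on its probe sets. On the brightest one its 19 values ran from 7.67 through a median of 8.06 to 8.86, the group means spanned 0.74, and no comparison was called (CSMN minus CPN over 4 stages 0.05 ± 0.15, adjusted p = 0.861). On the second one CSMN at E18 read 4.92 and 5.34, and CPN at E18 read 7.01 and 7.22. That probe set was lower in CSMN at E18 (-1.98 ± 0.43, adjusted p = 0.00815) and over 4 stages (-0.98 ± 0.21, adjusted p = 0.00882), and it rose from E18 to P14 in CSMN (1.37 ± 0.43, adjusted p = 0.0464). That rise was 0.38 without CSMN P14 replicate 1, where it did not pass, and 2.36 without replicate 2. The group means of the 2 probe sets correlated at -0.29 over 9 groups, so no direction is given for the gene. The genes most like the brightest probe set reached lower correlations than those of any other member, Gpr162 at 0.67 and Igll1 at 0.65.

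**Figure D2:**
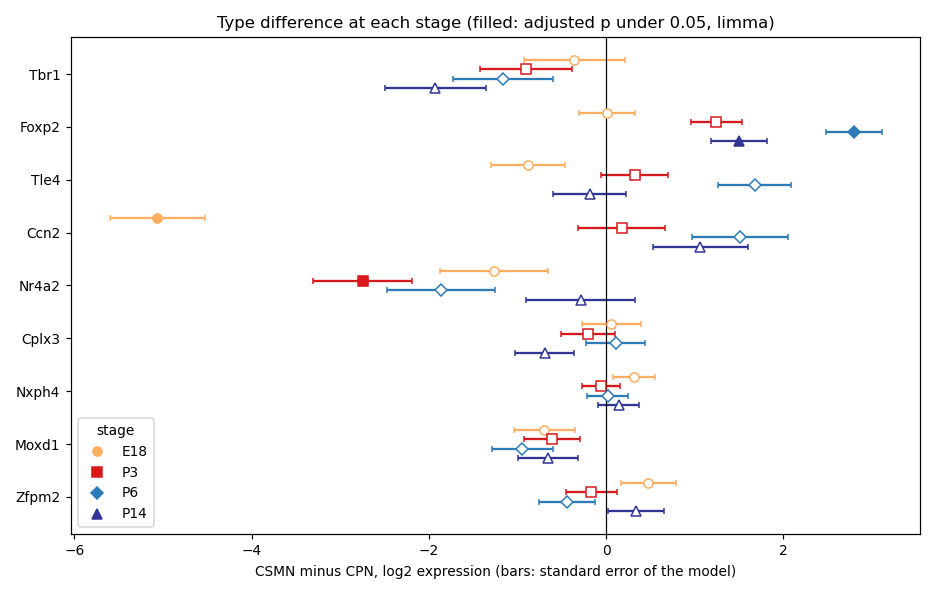
CSMN minus CPN on the log2 scale (horizontal axis) for each of the 9 genes at E18, P3, P6 and P14; bars are standard errors of the model and filled symbols passed an adjusted p under 0.05. Foxp2 moves from 0.01 at E18 to 2.79 at P6, Ccn2 stands at -5.06 at E18 and Nr4a2 at -2.75 at P3.

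Nr4a2, the nuclear receptor of the subplate, was highest in young CPN. In CPN it started at 7.93 and 9.23 (E18), reached 10.50 and 9.91 (P3) and came to 7.31 and 8.74 (P6) and 6.95 and 7.04 (P14). The CSMN arrays gave 7.79 and 6.85 (E18), 7.26, 6.51 and 8.61 (P3), 6.33 and 5.99 (P6) and 6.60 and 6.82 (P14). Every CPN array lay above every CSMN array at each of the 4 stages, by margins that were narrow at E18 and P14. Over 4 stages Nr4a2 was lower in CSMN (-1.54 ± 0.30, adjusted p = 0.00409). At P3 the difference was -2.75 ± 0.56 (adjusted p = 0.0308), and Nr4a2 was the 1 gene of the 9 called there, where 0.874% of all genes were. The P3 call was lost without either CPN P3 array, either CPN P14 array, or CSMN P3 replicate 1 or 2, with differences between -3.32 and -2.27 and adjusted p up to 0.408 over the fits that left out 1 array.

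In CPN, Nr4a2 fell 9.26-fold from P3, its highest group, to P14 (-3.21 ± 0.61, adjusted p = 0.00415), where 8.13% of all genes were called. Its change from E18 to P14 in CPN did not pass (-1.59 ± 0.61, adjusted p = 0.0917), where 19.2% of all genes were called. No member was called between P3 and P14 in CSMN by limma, where 12.6% of all genes were, and 2 members had an unadjusted p under 0.05. The mean of 5 early response genes, which neurons induce on activity, lay between 8.74 and 8.86 on the CPN arrays at P3 and between 7.68 and 8.40 on the CSMN arrays. Called lower in CSMN were 3 of the 5 over 4 stages (8.29% of all genes called), 4 at E18 (12.9%) and 1 at P3 (0.874%). None was called at P6 or P14. At P14, when Nr4a2 was low in CPN, that list was at its highest there, between 10.25 and 10.35, and the part of these genes in the Nr4a2 result was not tested. Dividing cell markers averaged between 7.58 and 7.77 in CPN at P3 and between 6.45 and 7.40 in CSMN, and their part was not tested either. CPN at P3 was the highest group for Nr4a2 and exceeded the next, CPN at E18, by 1.62 (unadjusted 95% interval 0.31 to 2.93), a step that did not pass over all genes (adjusted p = 0.146). Fn1, a matrix fibronectin (r = 0.89), and Shd, an adaptor protein (0.85), were the genes most like it.

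Ccn2 had the widest span of group means of the 9 genes, 5.06 on the log2 scale. CPN arrays measured 10.94 and 9.47 (E18), 7.17 and 6.90 (P3), 6.01 and 6.84 (P6) and 7.65 and 7.10 (P14). CSMN arrays measured 5.32 and 4.96 (E18), 6.93, 6.69 and 8.02 (P3), 8.04 and 7.85 (P6) and 9.19 and 7.70 (P14). The order of the types thus turned over: both CPN arrays lay above both CSMN arrays at E18, and both CSMN arrays above both CPN arrays at P6 and P14. At E18 the difference was -5.06 ± 0.54 (adjusted p = 1.9e-05), and Ccn2 was the 1 gene of the 9 called, where 12.9% of all genes were. At P6 it was 1.52 ± 0.54 (adjusted p = 0.362) and at P14 1.07 ± 0.54 (adjusted p = 0.372), neither of which passed. Over 4 stages it was -0.58 ± 0.26 (adjusted p = 0.221), or -0.76 without CSMN P14 replicate 1.

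From E18 to P14, Ccn2 fell 7.09-fold in CPN (-2.83 ± 0.54, adjusted p = 0.00152) and rose in CSMN (3.30 ± 0.54, adjusted p = 0.00085), where 15.1% of all genes were called. The change in CSMN exceeded that in CPN by 6.13 ± 0.76 (adjusted p = 0.00023), and Ccn2 was the 1 member called for this difference, beside 5.18% of all genes. The first step, from E18 to P3, passed in both types: -3.17 ± 0.54 in CPN (adjusted p = 0.00168, 8.08% of genes called) and 2.07 ± 0.49 in CSMN (adjusted p = 0.0187, 10.4% called). With P3 as the first stage in place of E18, the change in CPN was 0.34, and neither that, the change in CSMN nor their difference passed (0.115% of all genes were called for this difference). Without CSMN P14 replicate 1 the rise in CSMN was 2.56, and without replicate 2 it was 4.05. Markers of other cells moved with this comparison. Of 6 dividing cell and progenitor genes, 5 also changed more upward in CSMN than in CPN, and the median of the 6 was 5.77. So did 2 of 4 microglial genes, Aif1 (below the array medians on all arrays) and C1qa. The same held for 2 of 4 astrocyte genes and 1 of 4 endothelial and mural genes. The microglial list averaged 8.96 on CSMN P14 replicate 1, the array with Ccn2 at 9.19, and 7.24 on replicate 2. The part of these lists in the Ccn2 result was not tested, and without replicate 1 the difference in change was 5.38. Cenpq, a centromere protein, and Smpdl3a, a phosphodiesterase, were most like Ccn2, both at r = 0.94.

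The CPN arrays at E18, on which the Ccn2 result rests, also carried some markers of other cell types, though not all, at higher levels than the CSMN arrays. The mean of 4 astrocyte genes lay between 8.68 and 9.21 on the CPN arrays at E18 and between 6.43 and 6.67 on the CSMN arrays. Of these 4, Gja1 (10.84 in CPN, 4.58 in CSMN) and Aldh1l1 (10.57 and 6.52) were called lower in CSMN. Aqp4 (7.45 and 7.83) and Gfap (6.92 and 7.28) had the higher mean in CSMN and did not pass. For the mean of 4 microglial genes the CPN and CSMN ranges were 7.96 to 8.98 and 6.79 to 6.81. For 4 endothelial and mural genes they were 7.08 to 7.42 and 6.36 to 6.85. Called lower in CSMN were 3 of the microglial and 1 of the endothelial and mural genes, where 12.9% of all genes were called. Pecam1, of the latter list, had the higher mean in CSMN (5.86, beside 5.69 in CPN). The mean of 4 fibroblast and meningeal genes stayed between 5.69 and 6.43 on every array, and none of the 4 was called at E18. Among them Col1a1, a fibrillar collagen, lay below the array medians on all 19 arrays, Dcn, a proteoglycan, lay above them on every array, and Lum, a proteoglycan as well, was higher in CSMN at P6 (1.95 ± 0.41, adjusted p = 0.0358) and over 4 stages (1.27 ± 0.20, adjusted p = 0.000903). The part of the dividing, astrocyte, microglial and vessel markers in the E18 difference of Ccn2 was not tested.

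**Figure D3:**
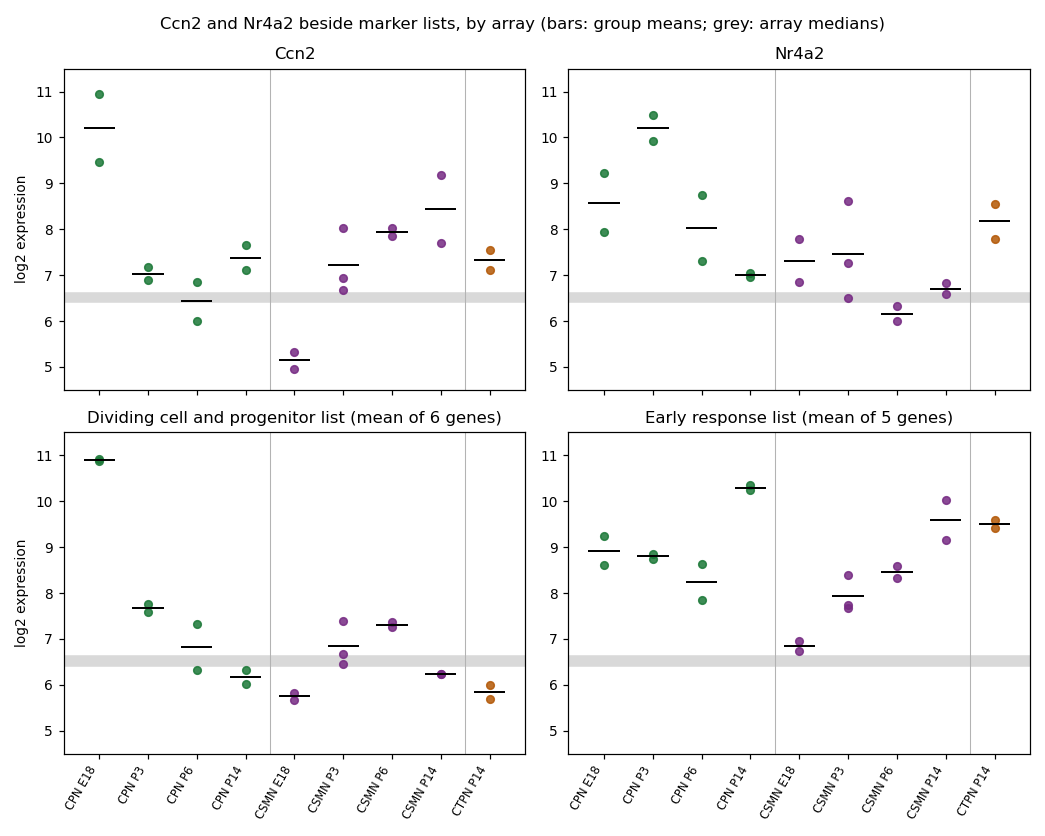
Log2 expression of Ccn2 and Nr4a2 (upper panels) above the array means of 6 dividing cell and progenitor genes and 5 early response genes (lower panels), by group; points are arrays, bars group means and the grey band the array medians. The CPN arrays at E18 lead both Ccn2 and the dividing cell list, while the early response list is highest in CPN at P14, where Nr4a2 is low.

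Cplx3, the complexin, had its highest group means at P14, in CTPN and CPN. CPN gave 6.35 and 6.51 (E18), 6.80 and 6.77 (P3), 6.67 and 6.70 (P6) and 7.82 and 7.21 (P14), and in CSMN it stayed between 6.13 and 7.10 on all 9 arrays. In CTPN it read 8.56 and 7.61. From E18 to P14 it rose in CPN (1.08 ± 0.33, adjusted p = 0.0327), 1 of the 3 members called there with Foxp2 and Ccn2, where 19.2% of all genes were. That call was lost without either CPN E18 array or without CPN P14 replicate 1. Most CPN and CSMN values before P14 lay near the array medians, so no fold is given. Wnt4, a secreted Wnt ligand, and Nhsl2 had the most similar courses (both r = 0.93).

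Nxph4 had the smallest span of group means of the 9 genes (0.48), and Moxd1 spanned 1.05. Moxd1 lay between 5.70 and 6.73 on the 8 CPN arrays and between 4.92 and 5.68 on the 9 CSMN arrays, and 17 of its 19 values were below the lowest array median. It was the 1 gene of the 9 whose CPN and CSMN arrays did not overlap over all stages, as did 0.368% of all genes, and its difference over 4 stages was -0.73 ± 0.17 (adjusted p = 0.0131). No single stage passed, and the size of a difference so near background says little about the amount of RNA. Nxph4 ran from 7.98 through a median of 8.23 to 8.81, and CSMN minus CPN over 4 stages was 0.10 ± 0.11 (adjusted p = 0.599). Hs3st1, a heparan sulfate sulfotransferase, and Cux1, an upper-layer homeobox gene, were most like Moxd1 (r = 0.90 and 0.87), and Igll1 (0.84) and Tubb6 (0.73) most like Nxph4.

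Neither comparison of CTPN called any of the 9 genes by limma, where 0.192% of all genes were called against CSMN and 1.06% against CPN. These comparisons share arrays with each other and with the P14 comparison of CSMN with CPN, so their values are given side by side. Against CSMN, 3 members had an unadjusted p under 0.05, Cplx3 (1.26 ± 0.33, adjusted p = 0.228), Nr4a2 (1.47 ± 0.61, adjusted p = 0.549) and Foxp2 (-0.82 ± 0.31, adjusted p = 0.532). Against CPN there were 2, Tbr1 (-1.94 ± 0.57, adjusted p = 0.187) and Foxp2 (0.68 ± 0.31, adjusted p = 0.707). Foxp2 in CTPN, at 8.14 and 7.72, lay between both CPN arrays (7.38 and 7.11) and both CSMN arrays (9.35 and 8.15). Tbr1 in CTPN, at 5.93 and 6.52, lay below both CPN arrays and between the CSMN arrays.

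The CTPN results also turned on the CSMN pair at P14. Without CSMN P14 replicate 1, 3 members were called between CTPN and CSMN, where 28.3% of all genes were: Tbr1 (1.22, adjusted p = 0.0415), Tle4 (1.38, adjusted p = 0.00257) and Cplx3 (1.53, adjusted p = 0.0106). Without replicate 2 it was Foxp2 alone (-1.42, adjusted p = 0.0373), where 0.357% of all genes were called. Leaving out either array, with the smaller spread estimated for all groups, also brought Tbr1 between CTPN and CPN past the test (-1.94, adjusted p = 0.00647), where 2.17% of all genes were called. Tbr1 turned its sign between these fits, from -1.24 without replicate 2 to 1.22 without replicate 1.

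Where a gene has several probe sets, the brightest was compared with the rest. Foxp2 has 6, and those ranked 2 and 3 in brightness followed the brightest over the 9 groups (r = 0.96 and 0.95). The second was also called over 4 stages (1.37, adjusted p = 0.000141), at P6 (2.46, adjusted p = 0.0025) and at P3 (1.82, adjusted p = 0.0118), but not at P14 (1.25, adjusted p = 0.128). On the third, CSMN P14 replicate 2 (5.01) lay below both CPN P14 arrays (5.06 and 5.47) and replicate 1 (8.52) above them. Nr4a2 has 6 as well, of which those ranked 2 and 4 in brightness followed the first (r = 0.99 and 0.96) and that ranked 3 did not (-0.10). The second Nr4a2 probe set was called over 4 stages (-1.03, adjusted p = 0.0242) but not at P3 (-1.86, adjusted p = 0.119). Both other Tle4 probe sets lay below the array medians on all 19 arrays, and Tbr1, Ccn2, Cplx3, Nxph4 and Moxd1 have 1 probe set each.

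**Figure D4:**
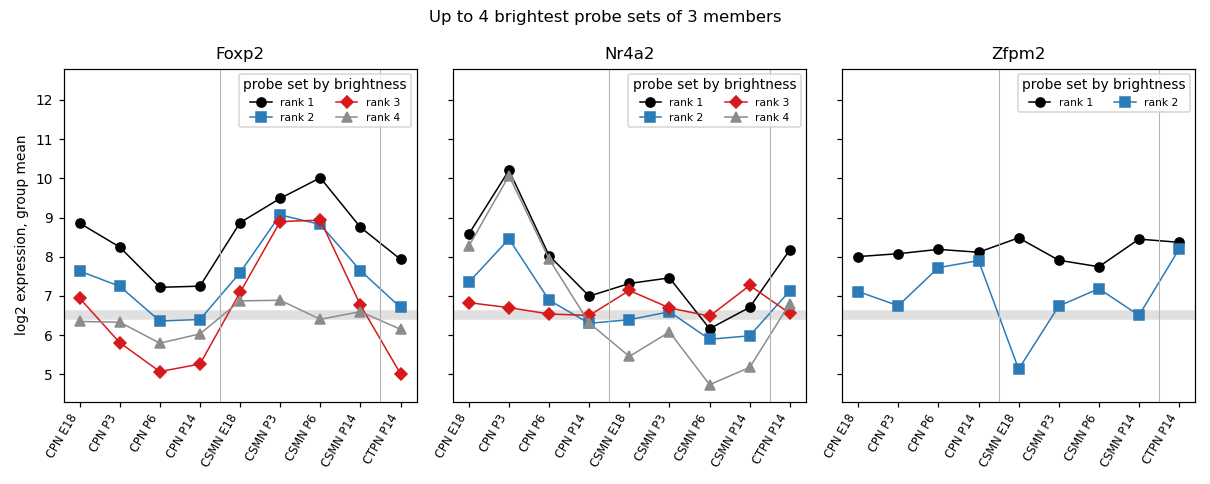
Group mean log2 expression (vertical axis) of up to 4 probe sets of Foxp2, Nr4a2 and Zfpm2, ranked by brightness, over the 9 groups (horizontal axis); the grey band is the range of array medians. The upper Foxp2 probe sets share their course, the Nr4a2 probe set of rank 3 stays near the array medians, and the second Zfpm2 probe set drops in CSMN at E18, where the first is at 8.48.

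The 9 genes did not move as a block. Of the 36 pairs of members, 13 had a positive and 23 a negative correlation of their 9 group means, with a median of -0.08 and a range from -0.60 (Tle4 and Zfpm2) to 0.78 (Tbr1 and Moxd1). The other pair above 0.7 was Nxph4 and Zfpm2 (0.75), both with narrow spans. Tbr1 and Foxp2, transcription factors that both mark layer 6, had a correlation of -0.39. These are descriptions over 9 means that share arrays and cell sources.

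**Figure D5:**
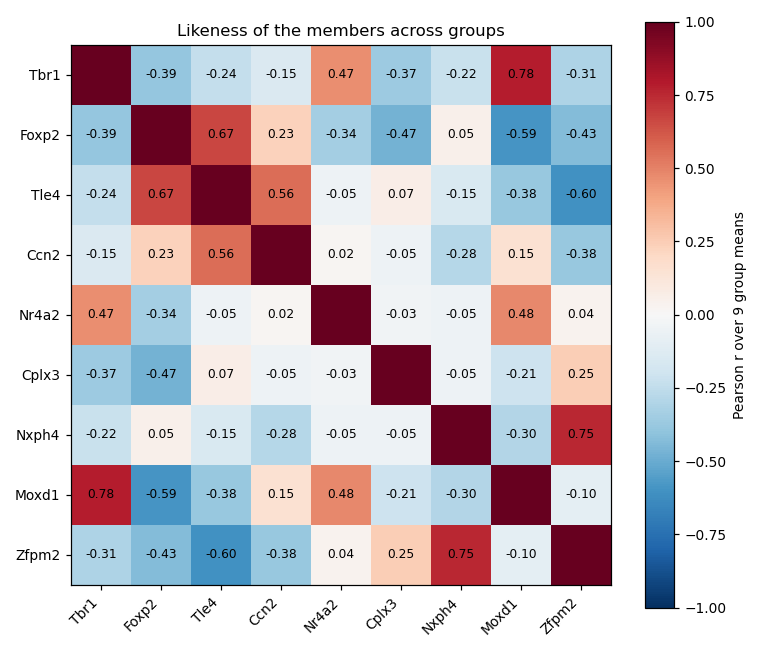
Pearson correlation of the 9 group means for every pair of the 9 genes, from blue (negative) to red (positive). Tbr1 and Moxd1 (0.78), Nxph4 and Zfpm2 (0.75) and Foxp2 and Tle4 (0.67) form the warmest pairs, and 23 of 36 pairs are negative.

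Other genes of the same layers were followed in the same comparisons. Of 16 further corticothalamic layer 6 genes, 2 were higher and 1 lower in CSMN over 4 stages, beside 8.29% of all genes called, and 13 did not pass, with a median difference of 0.10 beside 0.06 over all genes. Without CSMN P14 replicate 1 the counts were 3 higher and 3 lower (28.9% of all genes called), and without replicate 2 they were 4 higher and 1 lower (11.7%). Sox5, a transcription factor that controls the birth order of deep-layer neurons, was 2.08-fold higher (1.06 ± 0.14, adjusted p = 0.000171) and Garnl3 1.67-fold higher (0.74 ± 0.13, adjusted p = 0.00134). Ntsr1, the neurotensin receptor widely used to mark corticothalamic neurons, was 1.58-fold lower (-0.66 ± 0.15, adjusted p = 0.0139). Its group mean was lower in CSMN at E18, P3 and P6 (7.52, 8.16 and 7.97, beside 8.18, 9.36 and 9.45 in CPN). At P14 the order turned over, with CSMN arrays at 7.35 and 8.29 and CPN arrays at 6.93 and 7.26. At that stage 0 of the 16 were called, beside 1.39% of all genes. From E18 to P14, 4 of the 16 rose and 3 fell in CPN, beside 19.2% of all genes called. In CSMN 2 rose and 3 fell, beside 15.1% of all genes, and Igfbp4, a binding protein of insulin-like growth factors, rose 25.7-fold (4.68 ± 0.20, adjusted p = 5.39e-09). In CTPN, Igfbp4 was lower than in CSMN (-2.46 ± 0.20, adjusted p = 7.59e-05), the 1 gene of the list called there; without CSMN P14 replicate 1, 3 genes were higher and 3 lower (28.3% of all genes called). Against CPN, 2 were higher in CTPN, Ntsr1 (1.60, adjusted p = 0.0212) and Sox5 (1.39, adjusted p = 0.0255), and Igfbp4 was lower (-2.37, adjusted p = 0.000129). In that comparison 1.06% of all genes were called.

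Of 11 further subplate and layer 6b genes, 1 was higher and 1 lower in CSMN over 4 stages, beside 8.29% of all genes called. The other 9 did not pass, and the median of the 11 was -0.03. Without CSMN P14 replicate 1, 2 were higher and 2 lower (28.9% of all genes called), and without replicate 2, 2 higher and 1 lower (11.7%). Tmem163, a zinc-binding vesicle protein, was 3.54-fold higher (1.82 ± 0.20, adjusted p = 3.45e-05), and the lysophosphatidic acid receptor Lpar1 was lower (-0.54 ± 0.11, adjusted p = 0.00595). The Lpar1 difference lay at E18: its group mean was 8.18 in CPN at E18 and between 6.19 and 6.52, near the array medians, in every other group. With E18 left out, 1 of the 11 was higher in CSMN and 0 were lower, beside 4.11% of all genes called. At E18 the dopamine receptor gene Drd1 was higher in CSMN (1.63 ± 0.26, adjusted p = 0.000802), while Lpar1 (-1.76 ± 0.22) and Serpini1 (-1.13 ± 0.29), a neuronal serine protease inhibitor, were lower. At that stage 12.9% of all genes were called. From E18 to P14, 3 of the 11 rose and 1 fell in each type, beside 19.2% of all genes called in CPN and 15.1% in CSMN: Kcnab1, a potassium channel subunit, and Serpini1 rose in both, Gabra5 in CPN and Tmem163 in CSMN, while Lpar1 fell in CPN and Drd1 in CSMN. None of the 11 was called between CTPN and CSMN by limma, with 2 at an unadjusted p under 0.05, and without CSMN P14 replicate 1 there were 2 higher and 1 lower (28.3% of all genes called). Tmem163 was higher in CTPN than in CPN (2.32, adjusted p = 0.00948), where 1.06% of all genes were called. Osr1 and Cdh18 of the first list and Inpp4b and Abi3bp of the second lay below the array medians on all 19 arrays.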

How the data were processed

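RNA from 19 samples was measured on Affymetrix Mouse Genome 430 2.0 arrays after 2 rounds of in vitro transcription, per the labels. The authors deposited 1 log2 value per probe set and array; the submitters' processing notes name RMA, and its version is not given in the sources used here. They were used as deposited, and all columns were used. Of 45101 probe sets, 64 are controls, 34945 carry 1 symbol, 932 several and 9160 none; 34741 had a RefSeq entry and 0 symbols changed. A gene is its brightest probe set with 1 symbol, which gave 18193 genes. limma fitted 9 group means (10 residual and 4.46 prior degrees of freedom) with Benjamini-Hochberg adjusted p under 0.05, and was tested on simulated data. The number of arrays limits the precision, and the values carry no detection calls.

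All 9 members are named in every comparison. For each, the 2 genes most like it were named by Pearson r over 9 group means, among genes whose mean exceeded that of the median gene and whose group means had an SD of at least 0.5. For the layer 6 and subplate lists up to 4 called genes with the largest difference were named, and Bcl11b, Fezf2 and Cux2 check the types. Members and lists were chosen with earlier results of these data known. The alternatives were quantile and cyclic loess normalization, genes above the median mean, the mean of all probe sets, no shared probe sets, an intensity trend, array weights, a minimum difference of 1, only the groups compared, a replicate block, each array left out, and E18 left out. The F tests and the use of the second probe set were added after the data were seen. R 4.3.3, limma 3.58.1, Python 3.11.15 and matplotlib 3.10.9 were used.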

Additional observations from a re-analysis of the deposited data

Results flagged for a closer look

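The difference of Foxp2 between CSMN and CPN was not the same at all stages, by an F test of the type difference over the 4 stages with an adjusted p of 0.00953. It was 0.01 at E18 and 2.79 at P6. For Ccn2 the same F test gave an adjusted p of 0.000262, and the change from E18 to P14 in CSMN exceeded that in CPN by 6.13 on the log2 scale, with a fall in CPN and a rise in CSMN. No group had the 4 samples that a search for single outlying samples needs.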

How the results depend on the processing

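Of the comparisons of single members under the alternatives, 1665 of those that left out 1 array and 956 of the others kept their side of the threshold. Another 24 and 22 passed only under the alternative, 19 and 12 no longer passed, and 2 and 6 reversed. Some that passed in neither fit changed sign, such as Tle4 over 4 stages (-0.0004 without CSMN P14 replicate 1). The counts that follow are of members alone. The highest at P14 came without CSMN P14 replicate 1, where far more of all genes were called as well. Leaving out 1 array gave 3 to 5 members called over 4 stages (4 in all arrays), 1 to 2 at E18, 0 to 2 at P3, 1 to 2 at P6, 0 to 4 at P14, 2 to 4 for P14 against E18 in CPN, 1 to 3 in CSMN, 1 to 3 for the difference between these, 0 to 3 for CTPN against CSMN and 0 to 1 for CTPN against CPN.

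With quantile normalization 2 members were called at P3 and 2 for the difference in change, and with cyclic loess 2 each at P3, P6 and for the difference in change. With the mean of all probe sets 2 were called at P3 and 0 at P14, and without shared probe sets 0 at P3. Array weights gave 4 at P3, 4 at P6, 0 at P14, 0 for P14 against E18 in CSMN and 1 for CTPN against CPN. With only the groups compared the counts were 3 at P3, 0 at P14 and 1 for CTPN against CPN. Without E18 they were 1 in CPN, 0 in CSMN and 0 for the difference in change. With the other probe set they were 2 at E18, 0 at P14 and 2 for P14 against E18 in CSMN. The filter on genes above the median mean removes dim members and gave no count.

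Zfpm2 reversed over 4 stages, to -0.46 with the mean of all probe sets and -0.98 with the other probe set, and with the latter also at E18 (-1.98) and between P14 and E18 in CSMN (1.37). Nr4a2 over 4 stages became 0.25 without shared probe sets, where the probe set ranked 3 in brightness was read. The group means of that probe set spanned 0.78. Over 4 stages the Nr4a2 probe sets ranked 2, 4, 5 and 6 gave -1.03, -2.78, -0.17 and 0.05. Ccn2 in CPN became 0.34 without E18, Tle4 between P14 and E18 in CSMN -0.81 and Tbr1 between CTPN and CSMN 1.22, both without CSMN P14 replicate 1; without replicate 2 these were 1.07 and -1.24. The causes were not tested.

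With the replicate number as a block, Foxp2 over 4 stages was 1.40 (adjusted p = 6.98e-05) and the same 4 members were called, and in CPN between P14 and E18 Nr4a2 joined the 3 called, for 4. Deviations of same-numbered arrays correlated at a median of 0.08 over 28 pairs of groups, from -0.22 to 0.59, and 13 pairs lay above 0.1. With so few arrays per group, these values cannot settle whether the numbers pair samples in part of the groups. Dim values limit Moxd1, and Cplx3 before P14.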
